A study of Homo sapiens with 6 samples.

Results

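The genes described here are MYC and the bHLH-leucine zipper proteins that share its DNA site. They were taken by symbol from both comparison tables, which gave 10 genes (MYC, MAX, MXD1, MXD3, MXD4, MXI1, MNT, MGA, MLX and MLXIP) of 33095 listed. All 10 were abundant enough to carry an adjusted p-value in both tables. The cells were MM.1S, an established human myeloma line, a plasma cell malignancy grown in culture. The 3 groups were cells given lentivirus for a scramble control, cells given IRF3 shRNA 1 and cells given IRF3 shRNA 2, with 2 libraries of poly(A)-enriched RNA in each. All groups, controls included, had been transduced, and nothing in the labels says whether libraries of a group are separate cultures, so p-values measure only the spread between libraries, which may be technical. The hairpins target IRF3, a transcription factor of the interferon response, and the question here was how the MYC network was expressed under them.

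MYC binds DNA as a dimer with MAX at E-box sites and raises transcription of genes for ribosome assembly, nucleotide synthesis and glycolysis. The MXD proteins (MXD1, MXD3, MXD4 and MXI1), MNT and MGA also dimerise with MAX, and most of them bring corepressors to the same sites, so that they oppose MYC. MLX is the MAX-like partner of MLXIP (MondoA), which responds to sugar phosphates and drives TXNIP and ARRDC4. In myeloma MYC is often placed under immunoglobulin or other strong enhancers by rearrangement, and its transcript is usually abundant.

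The authors' deposited tables give, for each gene, a mean normalised read count over the libraries, a log2 fold change against scramble with its standard error (SE), and a DESeq2 adjusted p. Values for individual libraries were not used here and the depth of each library is unknown, so levels per group are means reconstructed from the authors' deposited mean and both log2 fold changes, with 95% intervals that rest on the fitted dispersion. A gene was called changed at a DESeq2 adjusted p below 0.05. Over all genes tested, 24.6% were called with shRNA 1 (9.8% higher, 14.8% lower) and 29% with shRNA 2 (10.9% higher, 18.1% lower), per the authors' deposited tables. IRF3 was at -1.53 ± 0.10 with shRNA 1 and -0.18 ± 0.10 (SE) with shRNA 2 per the authors' deposited tables, and the second did not pass (adjusted p of 0.181). Directions under shRNA 2 are therefore those of the libraries labelled shRNA 2. Plasma cell markers summed to a reconstructed mean of 115334 in scramble, 86691 with shRNA 1 and 71373 with shRNA 2, with 6 of 9 lower and 1 higher under shRNA 1 and 7 lower and 1 higher under shRNA 2. Of 19 markers of B, T, NK, myeloid, stromal and epithelial cells, 17 were listed, 11 of them with a mean below 20, and they summed to 459, 578 and 365. Not all carried an adjusted p. Those tested with shRNA 1 and shRNA 2 were 3 and 3 T and NK cell markers, 1 and 2 myeloid, 2 and 2 stromal, and 0 and 1 epithelial. No B cell marker was tested. Among the tested markers 3 were called with each hairpin, in both directions, where 24.6% and 29% of all genes were called. The myeloid integrin ITGAM (mean 88.7) was at 2.85 ± 0.44 and 2.03 ± 0.44 (SE) per the authors' deposited tables. The adhesion gene NCAM1 (mean 115.7), which stood in the T and NK cell list, was at -1.33 ± 0.33 and -2.76 ± 0.36 (SE). Both genes were called with both hairpins per the authors' deposited tables. CD3E was called with shRNA 1 (1.35 ± 0.48) and PDGFRB with shRNA 2 (-1.85 ± 0.71, SE) per the authors' deposited tables. The 4 myeloid markers alone summed to a reconstructed 41.9 in scramble, 187.9 with shRNA 1 and 111.9 with shRNA 2. Their part in the results was not tested. Counts are relative to each library of pooled cells, so a lower level of a gene per cell and fewer cells expressing it cannot be told apart.

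Of the 10 network genes, 4 were called with shRNA 1 (MXI1 and MYC higher, MLX and MGA lower) and 4 with shRNA 2 (MXD1, MXD4 and MXI1 higher, MXD3 lower), per the authors' deposited tables. The shares of 4 in 10 called with each hairpin stand beside the 24.6% and 29% of all genes. MXI1 was the 1 gene called in both, and MAX, MNT and MLXIP were called in neither. The shares of all genes called in both or in neither were not computed. The median log2 fold change of the 10 was 0.02 with shRNA 1 and 0.07 with shRNA 2, against -0.03 and -0.0026 over all genes tested, computed from the authors' deposited tables. Both comparisons use the same scramble libraries. The hairpins themselves were set against each other by a two-sided z test on the difference of the 2 log2 fold changes, adjusted by Benjamini-Hochberg over 17054 genes. It called 3 of the 10, MXD4 and MLX as higher and MXI1 as lower with shRNA 2, where 19.6% of all genes were called (8.28% higher, 11.4% lower).

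**Figure D1:**
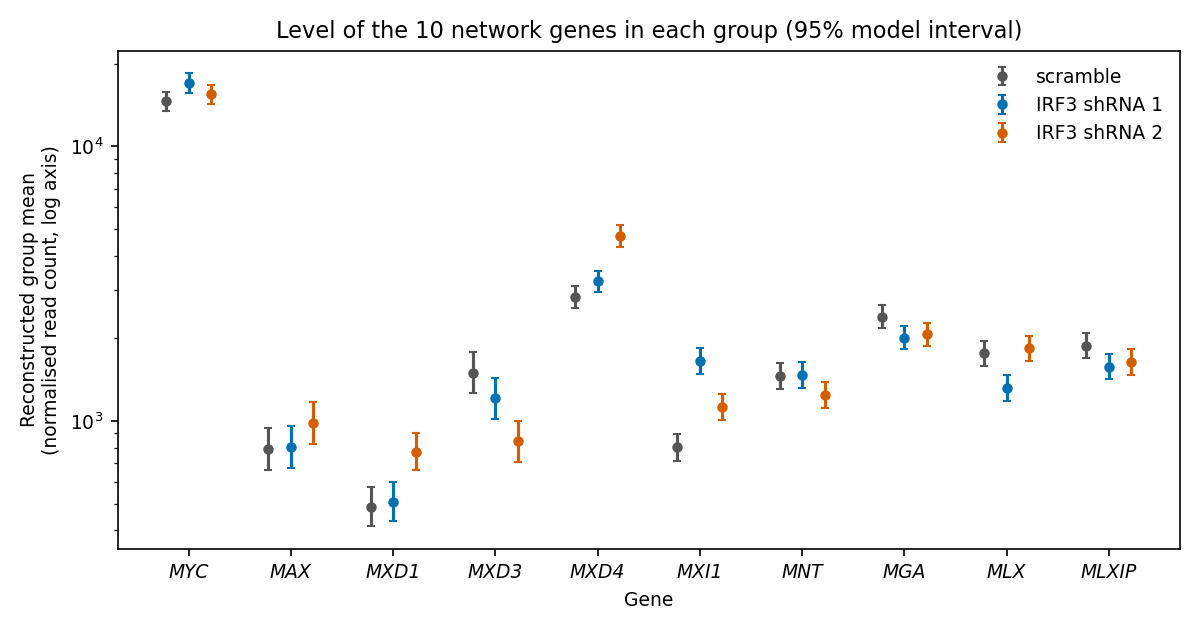
Reconstructed group means of the 10 genes in normalised read counts (log axis), for scramble (grey), IRF3 shRNA 1 (blue) and IRF3 shRNA 2 (orange), with 95% intervals from the fitted dispersion. MYC lies above all other members in every group, and the 3 intervals of MXI1 are separate.

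MYC (ENSG00000136997, on chromosome 8) was the most abundant transcript of the network, at a mean of 15676 normalised reads per the authors' deposited tables, above 98.8% of the 12977 genes with a mean of 50 or more. Its reconstructed mean was 14577 in scramble (95% interval 13445 to 15804), 16986 with shRNA 1 (15668 to 18413) and 15464 with shRNA 2 (14264 to 16765). The 3 intervals overlap in part, with shRNA 1 the highest. The log2 fold change was 0.22 ± 0.08 (SE) with shRNA 1 (DESeq2 adjusted p of 0.0378) or a ratio of 1.17, per the authors' deposited table. Without the filter on low genes that call was lost, with an adjusted p of 0.0854. With shRNA 2 it was 0.09 ± 0.08 (SE) with an adjusted p of 0.523 per the authors' deposited table, and the 95% interval of the ratio ran from 0.946 to 1.19. The difference between hairpins was -0.14 ± 0.12 (SE) with an adjusted p of 0.542 in the z test.

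IRF4, a transcription factor that activates MYC in myeloma cells, was lower under both hairpins. It was at -1.21 ± 0.08 with shRNA 1 and -1.87 ± 0.08 (SE) with shRNA 2 per the authors' deposited tables, with adjusted p-values of 2.72e-45 and 4.26e-107. Its reconstructed mean went from 17637 in scramble to 7613 with shRNA 1 and 4823 with shRNA 2. That of MYC was 14577, 16986 and 15464 in the same order. Whether the level of IRF4 bears on that of MYC here was not tested. The 5 genes with a mean of 1000 or more whose 2 log2 fold changes lay nearest to those of MYC were DYNC1H1, RNF114, BUD23, BID and CIB1, at distances of 0.0072 to 0.0167 log2 units. That likeness covers 2 comparisons with shared controls and is a description.

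The MYC paralogs were much rarer. MYCL had a mean of 151 normalised reads and log2 fold changes of -0.89 ± 0.27 with shRNA 1 and -0.96 ± 0.27 (SE) with shRNA 2 per the authors' deposited tables, and passed in both (adjusted p of 0.00721 and 0.00254). Its reconstructed means were 220 in scramble, 119 with shRNA 1 and 113 with shRNA 2. MYCN, at a mean of 35.3, was at -0.10 ± 0.54 and -2.80 ± 0.64 (SE) per the authors' deposited tables, and passed with shRNA 2 (adjusted p of 9.54e-05). That is a change from a reconstructed 51.1 normalised reads to 7.31.

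MAX (ENSG00000125952, chromosome 14, 65006174 to 65102695, minus strand, GRCh38) is the obligate partner of MYC, the MXD proteins, MNT and MGA. Its reconstructed mean was 789 in scramble, 803 with shRNA 1 and 983 with shRNA 2, with intervals that all overlap. The log2 fold changes were 0.02 ± 0.19 and 0.32 ± 0.19 (SE) per the authors' deposited tables, with adjusted p-values of 0.954 and 0.212. MAX had the widest SE of the network, so that a moderate change with either hairpin could have been missed.

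The MXD family, the repressors that replace MYC on MAX as cells leave the cycle, held the largest changes. MXI1 (chromosome 10, 110207605 to 110287365, plus strand) had a reconstructed mean of 802 in scramble, 1653 with shRNA 1 and 1123 with shRNA 2. The 3 intervals (716 to 898, 1484 to 1842 and 1006 to 1255) do not overlap. MXI1 rose by 1.04 ± 0.12 log2 units with shRNA 1 (DESeq2 adjusted p of 1.38e-17) and by 0.49 ± 0.12 (SE) with shRNA 2 (adjusted p of 0.000211) per the authors' deposited tables. These are ratios of 2.06 (95% interval 1.76 to 2.41) and 1.40 (1.20 to 1.64). The z test put shRNA 2 at -0.56 ± 0.16 (SE) log2 units relative to shRNA 1 (adjusted p of 0.00547), so the rise was smaller there.

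MXD4 (chromosome 4, 2247432 to 2262294, minus strand) had reconstructed means of 2820 in scramble, 3222 with shRNA 1 and 4716 with shRNA 2. The interval of shRNA 2 (4314 to 5156) lies above both others, which overlap each other. In the authors' deposited tables its log2 fold change was 0.19 ± 0.09 (SE) with shRNA 1, which did not pass (adjusted p of 0.128), and 0.74 ± 0.09 (SE) with shRNA 2, with an adjusted p of 6.86e-14. The difference between the hairpins was 0.55 ± 0.13 (SE), with an adjusted p of 0.000424 in the z test. MXD1 (chromosome 2, 69897688 to 69942945, plus strand) was the rarest member, with reconstructed means of 487, 508 and 773 in the same order. Only the interval of shRNA 2 (660 to 906) is clear of the other two. Its log2 fold change was 0.06 ± 0.17 with shRNA 1 (adjusted p of 0.855) and 0.67 ± 0.17 (SE) with shRNA 2 (adjusted p of 0.000427) per the authors' deposited tables. The difference of 0.61 ± 0.24 (SE) missed the threshold with an adjusted p of 0.0539, and passed with an adjusted p of 0.00142 when the SE was taken from reconstructed variances.

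MXD3 (chromosome 5, 177301461 to 177312757, minus strand), the family member known to be expressed in S phase of dividing cells, went the other way. Its reconstructed mean was 1495 in scramble, 1208 with shRNA 1 and 842 with shRNA 2, and the intervals of scramble (1259 to 1775) and shRNA 2 (707 to 1003) are separate. The authors' deposited tables give log2 fold changes of -0.31 ± 0.18 (adjusted p of 0.224) and -0.83 ± 0.18 (SE, adjusted p of 3.75e-05), and the latter equals a ratio of 0.563 (95% interval 0.441 to 0.720). Between the hairpins the difference was -0.52 ± 0.25 (SE), whose adjusted p was 0.152 in the z test and 0.0147 with the reconstructed SE. Annotated exons of MXD3 share 18.0% of their bases with RAB24 on the same strand and 22.5% with PRELID1 on the opposite strand, so the assignment of reads to MXD3 there is uncertain. RAB24 was at 0.78 ± 0.08 with shRNA 1 (adjusted p of 4.33e-19) and 0.20 ± 0.08 (SE) with shRNA 2 (0.0562), per the authors' deposited tables. PRELID1 was at 0.36 ± 0.08 (adjusted p of 4.4e-05) and -0.28 ± 0.08 (SE, 0.00176), per the authors' deposited tables. Their part in the values of MXD3 was not tested.

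**Figure D2:**
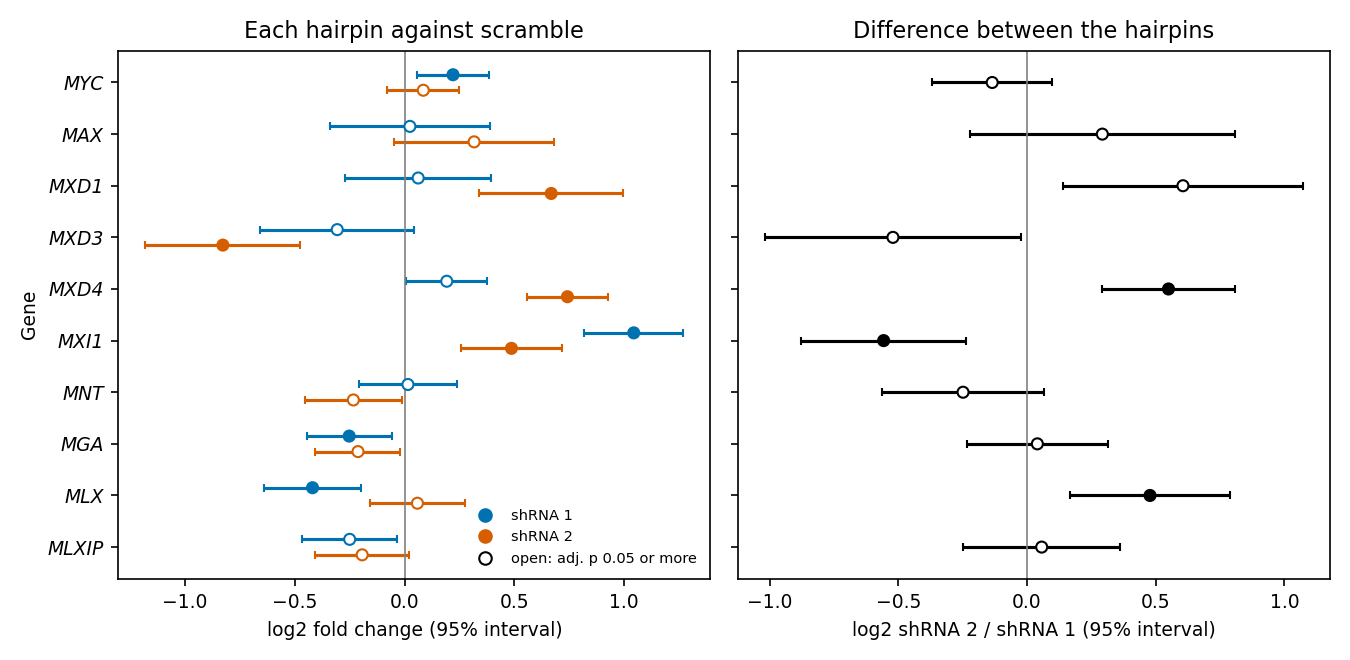
Left, log2 fold changes of the 10 genes against scramble for shRNA 1 (blue) and shRNA 2 (orange) with 95% intervals, from the authors' deposited tables, and right, the difference between the hairpins. Filled points have an adjusted p below 0.05, and in the left panel the highest filled points are MXD genes, at 0.49 to 1.04.

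Per kilobase of transcript, MXD3 was the most abundant MXD transcript in scramble, at 1008 normalised reads per kb of its RefSeq-matched transcript, and MXD4 followed at 695, MXI1 at 331 and MXD1 at 87.1. With shRNA 2 MXD4 came first at 1163, and MXD3 had 568. MXD3 made up 47.5% of the summed MXD level per kb in scramble, 34.2% with shRNA 1 and 24.3% with shRNA 2. MXI1 made up 15.6%, 28.6% and 19.9%, and MXD4 32.8%, 33.3% and 49.9%. The sum itself was 2121 per kb in scramble, 2382 with shRNA 1 and 2332 with shRNA 2. MYC stood at 2.90, 3.01 and 2.80 times that sum per kb. These shares describe reconstructed means and carry no test. Before scaling by length MXD4 exceeded MXD3 in scramble, at reconstructed means of 2820 against 1495. The per-kb values of MXD3 rest on the length of its RefSeq-matched transcript, 1483 nt. They also rest on reads of uncertain assignment, since its exons overlap RAB24 (mean 6600) and PRELID1 (mean 7325).

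**Figure D3:**
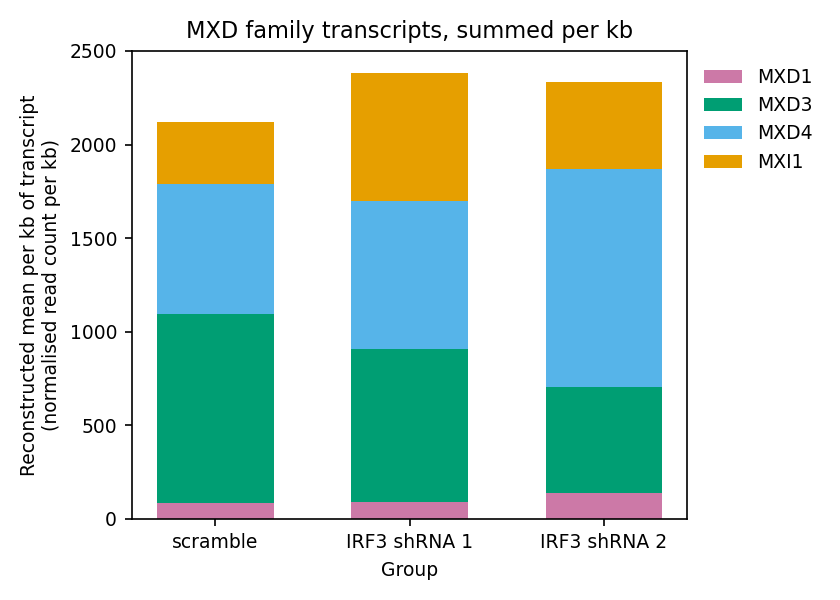
Stacked reconstructed means per kb of transcript of MXD1, MXD3, MXD4 and MXI1 in each group. The whole bar lies between 2121 and 2382 normalised reads per kb, while the MXD3 part is 1008 in scramble and 568 with shRNA 2. The MXD3 part depends on the transcript length used and on reads of uncertain assignment where its exons overlap other genes.

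The order of all 10 genes per kb in scramble was MYC (6161), MXD3 (1008), MXD4 (695), MLX (682), MAX (511), MXI1 (331), MNT (292), MLXIP (222), MGA (199) and MXD1 (87.1). Neighbours whose intervals overlap are MXD4 and MLX, MXI1 and MNT, and MLXIP and MGA. With shRNA 1, MXI1 stood in rank 4 at 682, and its interval overlaps those of MXD4 above it and MAX below it.

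Since MXD, MNT and MLX proteins and MYC all bind the E-box CACGTG, the bases upstream of the members' annotated starts were searched for it, on both strands (the site is its own reverse complement). RefSeq start sites on GRCh38.p14 were at hand for 9 of the 10 genes, all but MYC, which was therefore not searched. CACGTG stood within 250 bases upstream of 3 of their 14 starts, 1 each of MXD4, MNT and MLX, against 6.34% of all 35116 such windows. By gene this is 3 of 9, against 7.73% of 27305 genes. A match describes these letters and shows no binding. The stretches of the MXD genes are printed because these moved in unlike directions, trimmed so as to leave out annotated exons, 5′ to 3′ on the gene's strand, with a CACGTG in capitals where there is one. For MXI1, which has 3 annotated starts, the stretch is that of the most downstream start. They lie at chr2:69914859-69915040 (MXD1, plus), chr5:177312758-177313002 (MXD3, minus), chr4:2262295-2262359 (MXD4, minus) and chr10:110225746-110225992 (MXI1, plus).
MXD1: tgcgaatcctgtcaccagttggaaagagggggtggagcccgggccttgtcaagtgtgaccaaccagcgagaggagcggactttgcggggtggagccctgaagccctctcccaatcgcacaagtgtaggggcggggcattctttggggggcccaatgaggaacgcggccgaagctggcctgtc
MXD3: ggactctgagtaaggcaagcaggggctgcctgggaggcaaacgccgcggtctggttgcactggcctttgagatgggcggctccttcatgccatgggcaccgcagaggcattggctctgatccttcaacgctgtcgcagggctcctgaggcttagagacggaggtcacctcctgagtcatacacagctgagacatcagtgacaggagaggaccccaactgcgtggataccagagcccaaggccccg
MXD4: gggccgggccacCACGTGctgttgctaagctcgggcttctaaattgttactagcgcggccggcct
MXI1: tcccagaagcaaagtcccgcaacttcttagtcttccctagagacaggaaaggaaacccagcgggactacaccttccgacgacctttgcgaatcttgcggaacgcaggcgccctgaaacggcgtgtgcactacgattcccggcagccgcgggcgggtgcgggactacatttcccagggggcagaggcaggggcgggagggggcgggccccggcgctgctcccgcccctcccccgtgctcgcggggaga

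The site of MXD4 begins 238 bases before its RefSeq start (2262109), that of MNT 193 bases before 2401060 and that of MLX 50 bases before 42567100. These starts lie inside the gene bounds given in this text, so distances from the gene ends would be smaller. The surroundings of the MNT and MLX sites are shown for comparison with MXD4, at chr17:2401226-2401275 (minus) and chr17:42567028-42567067 (plus), with the E-box in capitals.
MNT: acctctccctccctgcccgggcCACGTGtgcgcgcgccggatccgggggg
MLX: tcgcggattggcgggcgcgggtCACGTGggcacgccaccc

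Of the 3 genes with this E-box, MXD4 was called higher with shRNA 2, MLX lower with shRNA 1, and MNT in neither comparison, per the authors' deposited tables. Whether the site bears on these changes was not tested.

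MNT (chromosome 17, 2384060 to 2401118, minus strand), a constantly expressed MAX partner that represses MYC targets, had reconstructed means of 1458 in scramble, 1474 with shRNA 1 and 1240 with shRNA 2, with overlapping intervals. Its log2 fold changes were 0.02 ± 0.11 and -0.23 ± 0.11 (SE) per the authors' deposited tables, with adjusted p-values of 0.952 and 0.113. MGA (chromosome 15, 41621224 to 41773081, plus strand), a large scaffold of the Polycomb complex PRC1.6 that holds both a T-box and a bHLHZip domain, had means of 2396, 2012 and 2069. It was at -0.25 ± 0.10 with shRNA 1 and -0.21 ± 0.10 (SE) with shRNA 2 per the authors' deposited tables, and only the first passed (adjusted p of 0.0450 against 0.0944). The difference between the 2 was 0.04 ± 0.14 (SE) and missed the threshold (adjusted p of 0.936). On recentring to the median gene the call with shRNA 1 was lost (adjusted p of 0.109), and likewise without the filter on low genes (0.101).

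MLX (chromosome 17, 42567068 to 42573239, plus strand) had a reconstructed mean of 1762 in scramble, 1318 with shRNA 1 and 1835 with shRNA 2. The interval of shRNA 1 (1182 to 1469) lies below both others (1583 to 1962 and 1649 to 2042). MLX fell by 0.42 on the log2 scale with shRNA 1 (SE 0.11, DESeq2 adjusted p of 0.00157) and was at 0.06 ± 0.11 (SE) with shRNA 2 (adjusted p of 0.778) per the authors' deposited tables. The difference of 0.48 ± 0.16 (SE) between the hairpins had an adjusted p of 0.0165. The exons of MLX share 18.1% of their bases with PSMC3IP on the opposite strand, at -0.48 ± 0.18 with shRNA 1 and -1.43 ± 0.18 (SE) with shRNA 2 per the authors' deposited tables, so their reads cannot be told apart there without strand. MLXIP (chromosome 12, 122078722 to 122147347, plus strand), the glucose-responsive partner of MLX, had means of 1874, 1576 and 1639. Its log2 fold changes of -0.25 ± 0.11 and -0.19 ± 0.11 (SE) per the authors' deposited tables did not pass (adjusted p of 0.0806 and 0.192). MLXIPL (ChREBP), its liver-type paralog, was rare, with a mean of 9.70 per the authors' deposited tables.

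TXNIP, an inhibitor of glucose uptake and the best known target of MLXIP and MLX, went in opposite directions under the hairpins. It had reconstructed means of 8546 in scramble, 5939 with shRNA 1 and 11665 with shRNA 2, whose intervals (7896 to 9250, 5484 to 6432 and 10782 to 12621) do not overlap. Its log2 fold change was -0.53 ± 0.08 with shRNA 1 (adjusted p of 6.33e-09) and 0.45 ± 0.08 (SE) with shRNA 2 (adjusted p of 5.75e-07) per the authors' deposited tables. The difference was 0.97 ± 0.12 (SE), with an adjusted p of 6.86e-15. ARRDC4, the related arrestin-domain target, was at 0.13 ± 0.27 with shRNA 1 and at 1.06 ± 0.26 (SE) with shRNA 2 (adjusted p of 0.807 and 0.000405) per the authors' deposited tables, from a reconstructed 126 normalised reads in scramble to 137 and 263. The difference of 0.94 ± 0.38 (SE) missed the threshold with an adjusted p of 0.0654, and passed with the reconstructed SE (adjusted p of 0.00191).

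Genes driven by MLXIP and MLX carry paired E-box-like sites known as carbohydrate response elements. A search for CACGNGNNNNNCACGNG on either strand found 1 in TXNIP and none in the windows of the 9 members or of ARRDC4, and 0.0456% of the 35116 windows hold it (16 windows). The stretch around it is shown because TXNIP passed with opposite signs under the hairpins, at chr1:145996629-145996689 (minus), with the pair and a neighbouring CGCGTG (the reverse of CACGCG, which 9.72% of windows hold in either orientation) in capitals. ARRDC4 has a CACGTG 210 bases before its start, at chr15:97960471-97960520 (plus).
TXNIP: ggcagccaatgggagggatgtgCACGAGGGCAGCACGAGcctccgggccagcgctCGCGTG
ARRDC4: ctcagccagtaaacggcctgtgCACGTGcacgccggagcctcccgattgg

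Of the 14 listed genes of the MLXIP and MLX target list, 12 were tested with shRNA 1, where 1 was higher and 3 lower with a median of 0.11, and 13 with shRNA 2, where 2 were higher and 4 lower with a median of -0.22, per the authors' deposited tables. The shares called over all genes were 24.6% and 29%, and the medians -0.03 and -0.0026. ACACB, a carboxylase that curbs fatty acid oxidation, was at -1.19 ± 0.17 and -1.06 ± 0.17 (SE) per the authors' deposited tables and passed in both. The glycolytic kinase HK2, which is also in the MYC target list, was at -0.08 ± 0.12 and -1.10 ± 0.12 (SE) per the authors' deposited tables. The first of these did not pass (adjusted p of 0.721) and the second did (1.84e-17). TXNIP and ARRDC4 thus stood on the other side of 0 from HK2 and ACACB with shRNA 2.

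MYC target genes for ribosome assembly and growth were 57 in number, 56 of them tested. The list is mixed and also holds MCM4, MCM5, CDK4 and HK2, so its counts are not those of ribosome assembly alone. With shRNA 1, 5 were higher and 8 lower with a median of -0.03, and with shRNA 2, 2 were higher and 21 lower with a median of -0.14, per the authors' deposited tables. Over all genes 14.8% and 18.1% were lower, and the medians were -0.03 and -0.0026. The replicative helicase genes MCM4 and MCM5 were at -2.38 ± 0.11 and -2.02 ± 0.13 (SE) with shRNA 2 per the authors' deposited table, against -0.33 ± 0.11 and -0.37 ± 0.12 (SE) with shRNA 1. CDK4, the G1 kinase, fell with both hairpins, at -0.70 ± 0.13 and -0.83 ± 0.13 (SE) per the authors' deposited tables, as did GRWD1, a ribosome assembly factor, at -0.52 ± 0.11 and -0.43 ± 0.11 (SE). The folate carrier SLC19A1 rose with shRNA 1 (0.42 ± 0.09) and fell with shRNA 2 (-0.59 ± 0.09, SE), and PES1, which acts in 28S rRNA processing, did the reverse, at -0.30 ± 0.09 and 0.34 ± 0.09 (SE), per the authors' deposited tables.

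The MYC target list of metabolism gave unlike counts with the hairpins. With shRNA 1, 11 of 30 tested were higher and 7 lower, and with shRNA 2, 1 was higher and 21 lower, per the authors' deposited tables. The shares over all genes were 9.8% higher and 14.8% lower under shRNA 1, and 10.9% and 18.1% under shRNA 2. The list median was 0.09 with shRNA 1 and -0.45 with shRNA 2, against -0.03 and -0.0026 over all genes. The z test between the hairpins called 19 as lower and 2 as higher with shRNA 2, where 11.4% and 8.28% of all genes were so called. Lactate dehydrogenase LDHA had reconstructed means of 16632 in scramble, 31788 with shRNA 1 and 7791 with shRNA 2, and log2 fold changes of 0.93 ± 0.08 and -1.09 ± 0.08 (SE) per the authors' deposited tables. ENO1, a glycolytic enzyme, was at 0.70 ± 0.08 and -0.37 ± 0.08 (SE), and the glutamine carrier SLC1A5 at 0.27 ± 0.09 and -1.01 ± 0.09 (SE), and both passed in both of the authors' deposited tables. SLC2A1, the glucose transporter GLUT1, rose with both, at 1.41 ± 0.15 and 0.94 ± 0.15 (SE) per the authors' deposited tables, and the mitochondrial serine enzyme SHMT2 fell with both, at -0.48 ± 0.10 and -0.77 ± 0.10 (SE). In all, 8 of the 30 passed in both comparisons with opposite signs, 7 as lower in both and 1 as higher in both. The matching shares over all genes were not computed, and both comparisons use the same scramble libraries.

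**Figure D4:**
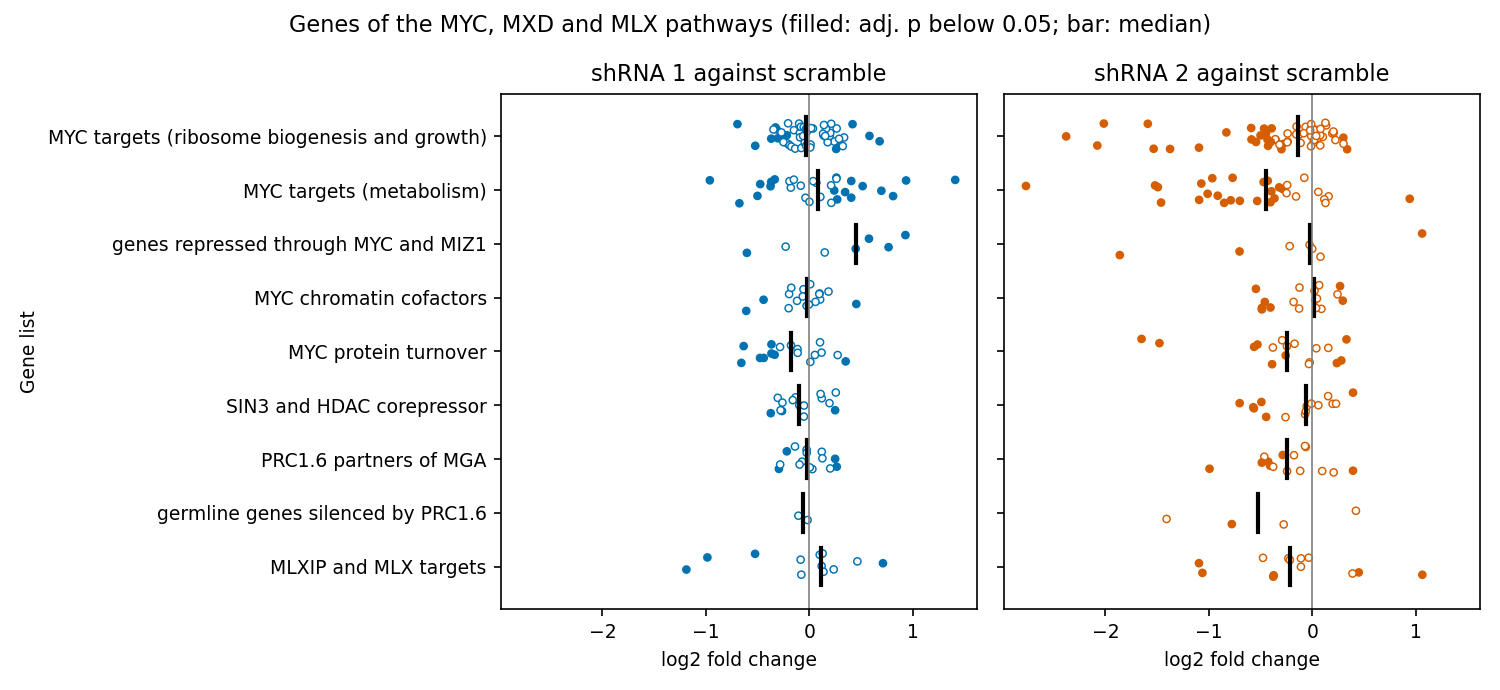
Log2 fold changes from the authors' deposited tables of tested genes in 9 lists of the MYC, MXD and MLX pathways, for shRNA 1 (left) and shRNA 2 (right), 1 point a gene, filled where the adjusted p is below 0.05, with the list median as a black bar. The median of MYC targets of metabolism is 0.09 on the left and -0.45 on the right.

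Genes that MYC represses through MIZ1 were few. Of 10 listed, 7 were tested, and 4 were higher and 1 lower with shRNA 1 (median 0.45), 1 higher and 2 lower with shRNA 2 (median -0.03), per the authors' deposited tables. All genes had medians of -0.03 and -0.0026, with 9.8% higher and 14.8% lower under shRNA 1 and 10.9% and 18.1% under shRNA 2. CDKN1A, the p21 cell cycle inhibitor, was at 0.77 ± 0.15 with shRNA 1, which passed, and -0.22 ± 0.16 (SE) with shRNA 2, which did not (adjusted p of 0.328), per the authors' deposited tables. CDKN1C (p57) was at 0.58 ± 0.23 and 1.06 ± 0.22 (SE) per the authors' deposited tables and passed in both, though the call with shRNA 1 was lost without the filter on low genes (adjusted p of 0.103). The secreted chaperone CLU rose with shRNA 1 (0.93 ± 0.12) and fell with shRNA 2 (-1.86 ± 0.13, SE), and NDRG1 fell with both, at -0.60 ± 0.09 and -0.70 ± 0.09 (SE), per the authors' deposited tables.

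Of 17 chromatin cofactors of MYC, 1 was higher and 2 lower with shRNA 1 and 2 were higher and 5 lower with shRNA 2, with medians of -0.03 and 0.02, per the authors' deposited tables. The shares called over all genes were 24.6% and 29%. PAF1, of the elongation complex of that name, was at -0.61 ± 0.13 and -0.55 ± 0.13 (SE) per the authors' deposited tables. The ATPase RUVBL2 was at 0.45 ± 0.10 and -0.49 ± 0.11 (SE), and passed in both of the authors' deposited tables with opposite signs. The acetyltransferase KAT5 was at 0.18 ± 0.14 (adjusted p of 0.369) and -0.40 ± 0.14 (SE, adjusted p of 0.0151) per the authors' deposited tables. Of 17 genes that set the stability of the MYC protein, 1 was higher and 7 lower with shRNA 1, and 3 were higher and 6 lower with shRNA 2, with medians of -0.18 and -0.25, per the authors' deposited tables. The shares over all genes were 9.8% higher and 14.8% lower under shRNA 1, and 10.9% and 18.1% under shRNA 2. AURKA, a mitotic kinase, fell with both, at -0.64 ± 0.18 and -1.48 ± 0.19 (SE), and so did the deubiquitinase USP37, at -0.37 ± 0.14 and -0.56 ± 0.15 (SE), per the authors' deposited tables. The call of USP37 with shRNA 1 was lost on recentring (adjusted p of 0.0824). CIP2A, an inhibitor of PP2A, was at -0.18 ± 0.15 (adjusted p of 0.456) and -1.65 ± 0.16 (SE, adjusted p of 5.06e-23), and the ubiquitin ligase subunit FBXO32 at -0.66 ± 0.13 (7.79e-06) and 0.15 ± 0.13 (SE, 0.420), per the authors' deposited tables.

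The SIN3 and HDAC corepressor, which MXD proteins and MNT recruit, had 1 of 15 genes higher and 2 lower with shRNA 1, and 1 higher and 5 lower with shRNA 2, with medians of -0.10 and -0.06, per the authors' deposited tables, where 24.6% and 29% of all genes were called in either direction. The histone-binding subunit RBBP4 fell with both, at -0.37 ± 0.08 and -0.45 ± 0.08 (SE), per the authors' deposited tables. Its paralog RBBP7 was at -0.13 ± 0.09 (adjusted p of 0.319) and -0.70 ± 0.09 (SE, adjusted p of 6.01e-13), per the authors' deposited tables. BRMS1, another subunit, was at -0.28 ± 0.13 and 0.20 ± 0.13 (SE) per the authors' deposited tables but missed the threshold in both (adjusted p of 0.106 and 0.280). Of 15 partners of MGA in PRC1.6, some of which are also in the lists above, 2 were higher and 2 lower with shRNA 1 (median -0.03), and 1 was higher and 5 lower with shRNA 2 (median -0.24), per the authors' deposited tables, beside the same shares of all genes. The chromatin reader L3MBTL2 was at -0.29 ± 0.11 and -0.43 ± 0.11, and CBX3 at -0.22 ± 0.09 and -0.29 ± 0.09 (SE), and both passed in both of the authors' deposited tables. Their calls with shRNA 1 were lost on recentring (adjusted p of 0.0706 and 0.124). TFDP1, the E2F partner, was at 0.26 ± 0.09 and -0.41 ± 0.09 (SE) and passed in both of the authors' deposited tables, and WDR5 was at -0.03 ± 0.11 (adjusted p of 0.908) and -0.49 ± 0.11 (SE, adjusted p of 9.41e-05).

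Most germline genes that PRC1.6 keeps silent were too rare to test. Of 14 in the authors' deposited tables, 2 carried an adjusted p with shRNA 1 and 4 with shRNA 2, and 1 was called, SYCP3, with shRNA 2. Among all genes tested, 24.6% were called with shRNA 1 and 29% with shRNA 2. SYCP3, of the synaptonemal complex, had a mean of 1215 normalised reads and was at -0.02 ± 0.12 (adjusted p of 0.947) with shRNA 1 and -0.78 ± 0.12 (SE, adjusted p of 1.24e-09) with shRNA 2 per the authors' deposited tables.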

How the data were processed

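RNA sequencing compared IRF3 shRNA 1 and IRF3 shRNA 2 with a scramble control in MM.1S cells, 2 libraries a group, grouped by titles. The submitters' processing notes name Salmon 0.12.0, DESeq2 1.24.0 and GRCh38 (hg38), without settings. No source used here gives the annotation or strand use. The authors deposited 2 tables of comparisons. Per the file headers, these hold a signal (baseMean, the mean normalised read count), a log2 fold change with its SE on the log2 scale, a Wald score, and p-values with adjusted p-values. The Wald score deposited by the authors equals the log2 fold change over its SE within 3.27e-07.

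Adjusted p-values as deposited cover 14488 genes (shRNA 1) and 17054 genes (shRNA 2). Low genes carry none, so they were left out of counts. The sign was checked on 929 changed genes: dispersions solved from each table differed by a median of 5.71e-05 as coded and 0.000628 to 0.0015 with signs turned. Group means assume 3 groups of 2 libraries with equal weight. The difference between the hairpins used the root of the summed squared SEs, which is too large because scramble is shared. In simulated data the SE from reconstructed variances made more false calls than this one, but also recovered more of the smaller true differences. That simulation took the dispersion of each gene as known, which is not so in the data. Levels per kb use the GENCODE 29 transcript matched to a RefSeq NM entry, the APPRIS principal one where matched, otherwise the longest. Python 3.11.15, pandas 2.3.3 and scipy 1.17.1 were used.

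Members and gene lists were chosen with earlier results of these data known. Named genes were the members, MYCN, MYCL, MLXIPL, IRF3, IRF4, TXNIP, ARRDC4, up to 4 genes of each list passing in both comparisons by the lowest larger adjusted p, up to 2 by the lowest p of the difference, and the 5 genes nearest to MYC. Genes overlapping a member, and the 4 called markers of other cell types, were named after their values were seen. Alternatives covered the threshold (0.01, 0.1), a minimum log2 fold change of 0.5, the low-gene filter, recentring, and the SE and gene set of the difference. Promoter sequences are from RefSeq (GRCh38.p14).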

Additional observations from a re-analysis of the deposited data

Results flagged for a closer look

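The effects of the hairpins differed by the z test for several genes, given here as the log2 ratio of shRNA 2 to shRNA 1. That test called 19.6% of all genes. Many of the list genes below were named because they had the lowest p of this same difference, so their passing was fixed by that choice. In the network itself the genes that differed were MXD4 at 0.55, MLX at 0.48 and MXI1 at -0.56. MXD4 and MLX were thus higher and MXI1 lower with shRNA 2. Among other fixed genes, IRF3 was at 1.35, IRF4 at -0.66, TXNIP at 0.97 and the low-count MYCN at -2.70.

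Among MYC targets the ratio was -2.05 for MCM4, -1.65 for MCM5, -1.005 for SLC19A1, 0.64 for PES1, -2.03 for LDHA, -1.06 for ENO1, -1.28 for SLC1A5 and -1.02 for HK2. CLU was at -2.79 and CDKN1A at -0.98. Among cofactors and turnover genes, RUVBL2 was at -0.94, KAT5 at -0.59, WDR5 at -0.46, AURKA at -0.84, CIP2A at -1.47 and FBXO32 at 0.81. RBBP7 was at -0.57, BRMS1 at 0.47, TFDP1 at -0.67 and SYCP3 at -0.76. BRMS1, which passed against scramble with neither hairpin, lost the call when all genes with a p-value were tested (adjusted p of 0.0948).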

How the results depend on the processing

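The count of network genes called with shRNA 1 was 4, and became 2 at a threshold of 0.01, 1 with a minimum log2 fold change of 0.5 and 2 without the filter on low genes, and was 3 to 5 under the other alternatives. With shRNA 2 it was 4 and stayed between 3 and 5. Between the hairpins it was 3, stayed between 2 and 4 under most alternatives, and became 5 with the SE from reconstructed variances, where MXD1 and MXD3 were added. No member changed sign under recentring, which shifts values by 0.04. Named genes WDR5 and SYCP3, uncalled with shRNA 1, changed sign there, to 0.014 and 0.024. Of 288 list counts under alternatives, 81 moved by over 1.5 times, 30 of these through the minimum fold change, and of 688 values of other named genes, 48 lost and 8 gained a call. No paired analysis was possible because the tables used here carry comparisons and no columns of single libraries, and for the same reason no library was left out in turn. The median SE with shRNA 1 was 0.134 for genes with a mean from 500 to 2000, which limits the size of change that 2 libraries a group could show for most members.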
